A study of Glycine max with 6 samples.

Results

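SS and N-36A are soybean genes first known as nodulins, and their transcripts were measured here in hydroponic roots of 2 near-isogenic lines that differ in Fe efficiency. The members were taken by gene symbol: a clone belonged to SS or N-36A when the probe-to-gene table gave that single symbol for its row. This gave 3 clones of SS (Gene ID 547508), namely Gm-r1021-169, Gm-r1021-3937 and Gm-r1083-1238, and 1 clone of N-36A (Gene ID 547771), Gm-r1021-2442. These 4 clones were part of 18361 cDNA clones on the array, of which 1091 carried 1 gene symbol, for 526 genes. Each of the 4 was printed once per array.

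IsoClark is the Fe-inefficient isoline, bred by repeated backcrossing into Clark, and Clark is the Fe-efficient line. Roots of both lines came from plants of the same stage in hydroponics with sufficient Fe, and each of the 3 biological replicates pooled the roots of several plants that shared a hydroponic unit. IsoClark and Clark RNA of a replicate were hybridized together on a pair of spotted cDNA arrays with the dyes exchanged, so that 6 arrays were read. Arrays are called the Cy3 and the Cy5 array of their replicate by the dye of IsoClark, and per-array values give the Cy3 array first. A spotted cDNA can bind transcripts of close family members too, so that the values below are those of the clones.

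Nodulins are plant genes whose transcripts are found in, or are raised in, the nodules that legume roots form with rhizobia. Sucrose synthase, the product of SS, splits sucrose with UDP into UDP-glucose and fructose. In nodules it opens the use of sucrose from the shoot as fuel for nitrogen fixation and as a source of malate for the bacteroids, and outside nodules it serves starch, cell wall and respiratory metabolism in roots, seeds and other sink tissues.

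The plants were germinated in sterile vermiculite and fed with nitrate and ammonium, and the labels and methods mention no inoculation with rhizobia. Nodule RNA was not looked for through leghemoglobin, the oxygen carrier that defines nodules. The reference annotation holds 4 leghemoglobin genes with the symbol LB and a number, and 0 of them were named among the clones. Genes under other symbols were not counted, and only 1091 of the 18361 clones carried 1 gene symbol. The absence of nodules therefore rests on the description of the growth conditions. In whole roots, fewer cells of a type and less RNA per cell cannot be told apart.

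The arrays were of uneven quality. The median spot was 5.09 to 18.3 times its local background in the IsoClark channel and 3.31 to 13.9 times in the Clark channel, and between 18.9% and 44.2% of the cDNA spots of an array were flagged as poor. The Cy5 array of replicate 2 stood apart, with a mean correlation of spot intensities of 0.33 with the other arrays, compared with 0.59 to 0.71 for those. Line ratios of the arrays of a swap pair were nearly unrelated. Over the clones with a value on both arrays after poor spots were left out, Pearson's r was 0.11, -0.06 and -0.08 in replicates 1, 2 and 3.

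SS transcripts were detected in both lines by every clone. On 6 of 6 arrays each SS clone exceeded background (signal mean over the local background median plus 2 background SD) in the IsoClark channel, and on 6 of 6 in the Clark channel. Of all cDNA clones 59% lay above background in both lines on all 6 arrays, so detection throughout was the usual state of a clone on this array. With a stricter limit of 3 background SD, Gm-r1021-169, Gm-r1021-3937 and Gm-r1083-1238 passed in 11, 10 and 12 of the 12 channels. Spots that were not flagged as poor were left on 4, 6 and 4 arrays. Counting only these, the clones passed in 8, 12 and 8 channels, which were all the channels left.

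Brightness was placed on a common footing by the percentile of a spot's background-corrected intensity among the cDNA spots of the same channel. A percentile also depends on how much cDNA was spotted and how long it is, so it describes a spot in its channel and does not rank transcripts. Gm-r1083-1238 lay at 96.3 and 70.6 in replicate 1, 95.1 and 96 in replicate 2 and 85.3 and 59 in replicate 3 in IsoClark. In Clark the same spots lay at 96.3 and 72, 94.7 and 97, and 91.6 and 62.3. The widest IsoClark minus Clark difference on an array was -6.3 points, on the Cy3 array of replicate 3, while the arrays of replicates 1 and 3 differed by over 20 points between dye orientations. The spots on the Cy3 array of replicate 1 and the Cy5 array of replicate 2, which include its highest readings in both lines, were flagged as poor. The replicate means were 83.7 ± 11.7 in IsoClark and 85.6 ± 9.5 in Clark (SD, n = 3), and 78.3 in IsoClark and 80.1 in Clark with poor spots left out.

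Gm-r1021-3937 held both the brightest SS readings and the dimmest. In IsoClark it lay at percentile 99.4 and 89.6 in replicate 1, 94.9 and 33 in replicate 2 and 90.7 and 33 in replicate 3. In Clark it lay at 99.3 and 90.9, 97.2 and 48.4, and 97.2 and 44.7. The low readings were those of the Cy5 arrays of replicates 2 and 3. On the Cy5 array of replicate 3 the image program had flagged the spot as empty, and its signal was 2.62 times local background in IsoClark and 2.42 times in Clark. At the other end, the spot was saturated on 1 array, and there its signal was 42.7 times background in IsoClark and 100.1 times in Clark.

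Gm-r1021-169 ran from percentile 47.1 to 94.5 in IsoClark, with a median of 70.5, and from 57 to 95.3 in Clark, with a median of 73. Both its extremes came from spots flagged as poor, the highest on the Cy5 array of replicate 2 and the lowest on the Cy5 array of replicate 3. The order of arrays differed from that of Gm-r1021-3937: on the Cy5 array of replicate 2, where Gm-r1021-3937 was dim, Gm-r1021-169 and Gm-r1083-1238 were at their own highest or next to it, on spots flagged as poor.

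IsoClark minus Clark in mean percentile was -2.5 ± 3.3 points for Gm-r1021-169, -6.2 ± 4.8 for Gm-r1021-3937 and -1.9 ± 2.5 for Gm-r1083-1238 (SD, n = 3). The replicates lay lower in IsoClark in 2, 3 and 3 of 3 cases. The two-sided exact sign-flip permutation p was 0.5, 0.25 and 0.25, and 0.25 is the smallest that 3 replicates allow. These line differences were small beside the spread of a clone between arrays. Both lines were read on the same spots, so that spread does not gauge the paired differences, whose own SD is given above.

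N-36A was dim and not detected on every array. On 4 of 6 arrays Gm-r1021-2442 exceeded background in the IsoClark channel, and on the same 4 in the Clark channel. The exceptions were the Cy5 arrays of replicates 2 and 3, and on both of them the spot was flagged as empty. Blank and empty positions of the print layout passed the same limit in 7.55% of cases. With the limit at 3 background SD, N-36A passed in 6 of 12 channels in place of 8.

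In IsoClark, N-36A lay at percentile 6.4 and 15 in replicate 1, 28.2 and 4.3 in replicate 2 and 33.4 and 12.3 in replicate 3. In Clark it lay at 6.4 and 21.8, 27.0 and 8.7, and 28.7 and 1.9. No reading in either line reached the middle of its channel. Its signal was between 1.93 and 6.08 times local background in IsoClark and between 1.4 and 4.59 times in Clark. The replicate means of the percentile were 16.6 ± 6.1 in IsoClark and 15.8 ± 1.9 in Clark, with a difference of 0.8 ± 5.9 points (SD, n = 3, exact sign-flip permutation p = 1).

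**Figure D1:**
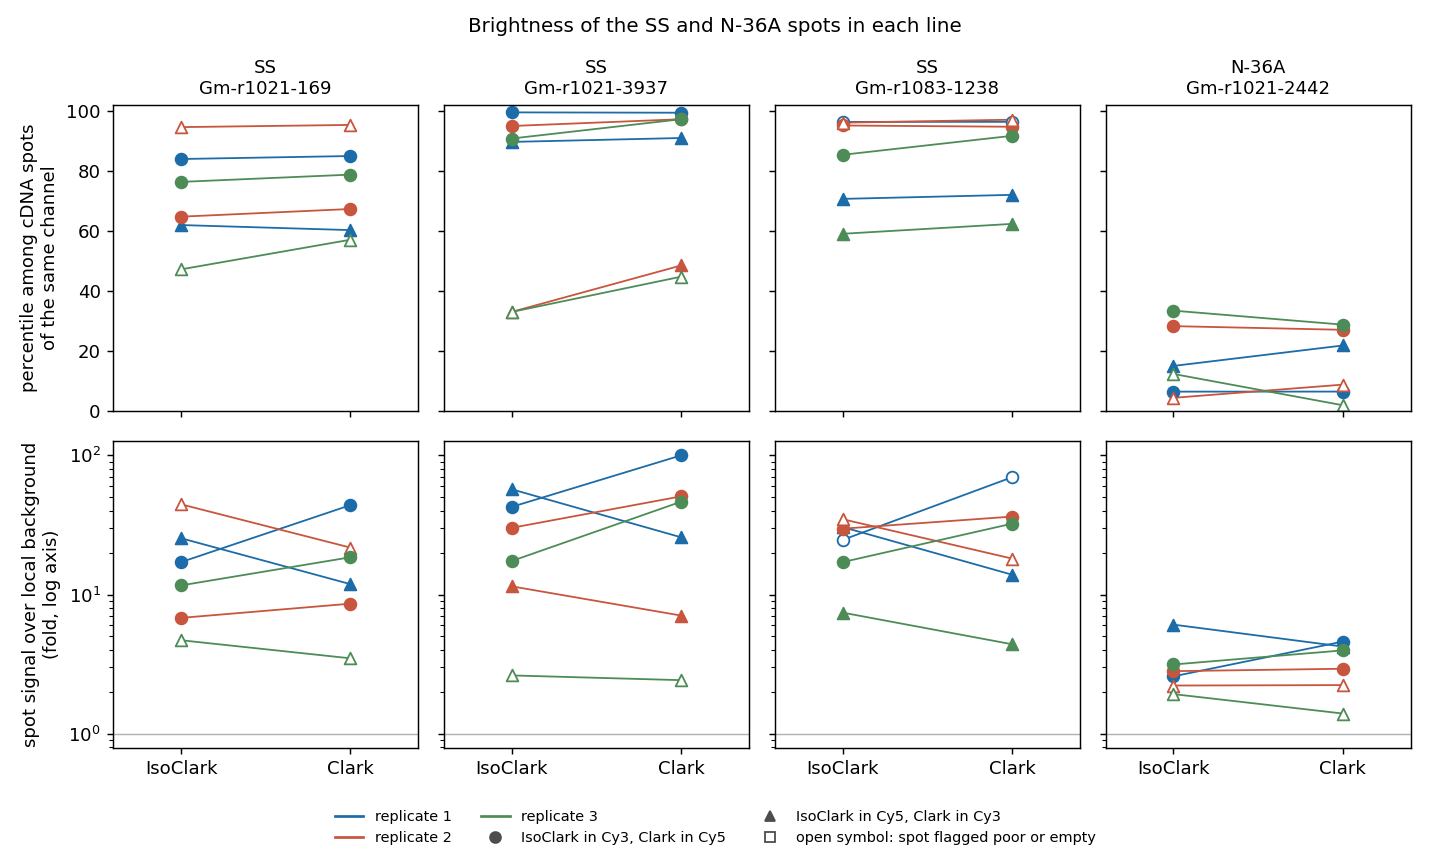
Upper panels give the percentile of each SS and N-36A spot among the cDNA spots of the same channel, and lower panels the spot signal over local background on a log axis, with IsoClark left and Clark right and each line joining both channels of 1 array. Each SS clone spreads more between arrays than between the lines on any one array, where the widest IsoClark minus Clark difference is -15.5 points, Gm-r1021-3937 falls into 4 bright and 2 dim arrays, and N-36A stays between 1.9 and 33.4.

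The comparison of the lines asked whether transcripts of these genes differ between IsoClark and Clark when Fe is sufficient. No SS or N-36A clone passed an adjusted p of 0.05 (limma with Benjamini-Hochberg adjustment over 13430 clones), as held for all clones, of which 0% passed. An unadjusted p under 0.05 was found for 0 of the 4 clones, while 5.53% of all clones tested had one. Ratios are log2 of IsoClark over Clark after loess within each array, averaged over a swap pair to 1 value per replicate.

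Gm-r1021-3937 had the lowest ratio of the 4. Its arrays gave 0.05 and -0.00 in replicate 1, -0.51 and -0.55 in replicate 2 and -0.65 and -0.50 in replicate 3. The values of replicates 2 and 3 were all well below 0 in either dye orientation, and those of replicate 1 were near 0. The -0.50 came from a spot flagged as empty, at 2.62 times local background in IsoClark and 2.42 times in Clark. The -0.55 came from the Cy5 array of replicate 2, whose spot intensities correlated least with those of the other arrays. The mean was -0.36 ± 0.33 (SD, n = 3), or 0.779-fold, with a 95% limma interval from -0.74 to 0.02. Its limma p was 0.0577 unadjusted and 0.796 adjusted. In size the mean exceeded that of 93.4% of the clones tested, and the SD exceeded that of 73.8%.

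The replicates of Gm-r1021-3937 divide along the day on which the images were quantified, since replicate 1 was quantified on one day and replicates 2 and 3 on another. The mean was -0.26 with the day as a term (adjusted p = 0.819) and -0.55 without replicate 1 (adjusted p = 0.50, with the range over 19 alternatives from 0.50 to 1). The part of the day in this pattern was not tested. The arrays of replicate 1 also held the saturated reading, and with saturated spots left out the mean was -0.37.

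The agreement within the swap pairs of Gm-r1021-3937 rests on the dyes as labelled. The labelling text of the Cy5 array of replicate 2 names the dyes the other way round from its label field, and with that array turned the mean was -0.18. In the authors' ratio table the column of the Cy3 array of replicate 3 runs opposite to the other columns, and with that array turned the mean was -0.14.

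The other SS clones lay closer to 0. Gm-r1021-169 gave -0.00 and 0.09 on the replicate 1 arrays, -0.15 on 1 array of replicate 2 and -0.13 on 1 array of replicate 3, since its spots on both other arrays were flagged as poor. Its mean was -0.08 ± 0.11 (SD, n = 3), with a 95% limma interval from -0.38 to 0.22 and an adjusted p of 0.906. Gm-r1083-1238 gave -0.06 on 1 array of replicate 1, 0.07 on 1 array of replicate 2, and -0.43 and -0.14 on the arrays of replicate 3. Its mean was -0.09 ± 0.18, with an interval from -0.41 to 0.22 and an adjusted p of 0.899. Means of both clones lay within their replicate spread of 0. A dye effect does not cancel in the replicates that rest on 1 array.

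N-36A had replicate values on both sides of 0. Its arrays gave 0.00 and -0.43 in replicate 1, 0.08 and -0.83 in replicate 2 and 0.30 and 1.22 in replicate 3. The widest values, -0.83 and 1.22, came from the arrays on which the spot was not above background in either channel. The mean was 0.06 ± 0.61 (SD, n = 3), with a 95% limma interval from -0.47 to 0.59 and an adjusted p of 0.970, and the SD exceeded that of 95.4% of the clones tested. Over the 4 arrays with the spot above background the replicate values were -0.21, 0.08 and 0.30, with a mean of 0.06 ± 0.26.

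**Figure D2:**
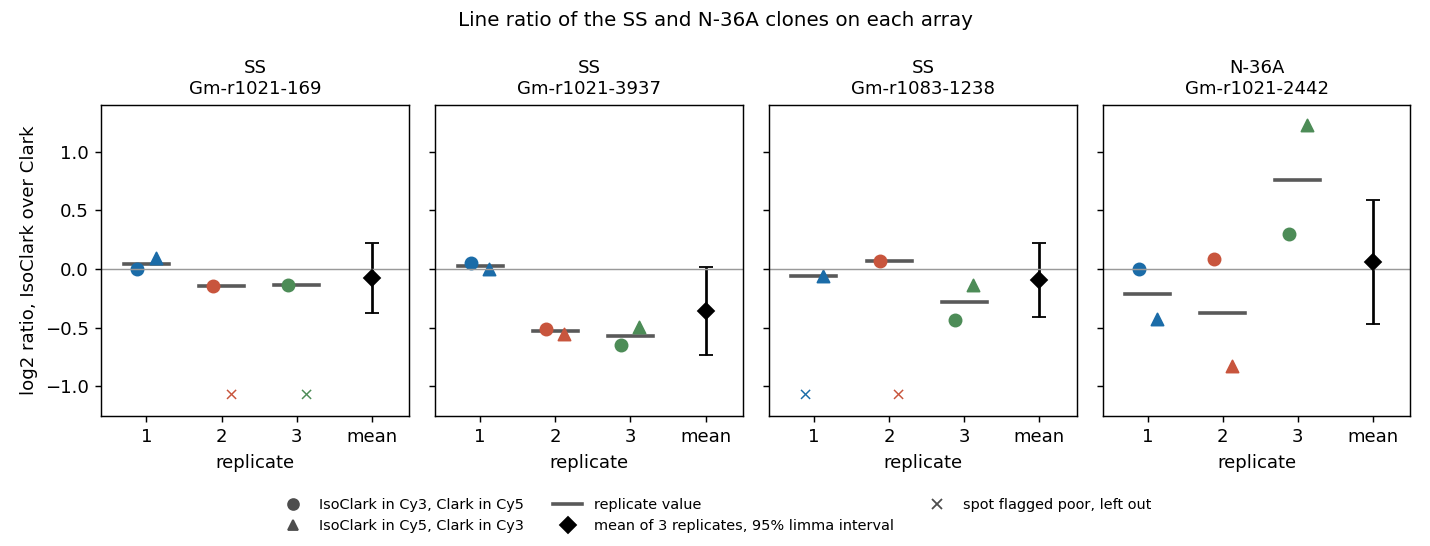
Points give the log2 ratio of IsoClark over Clark on each array for the 4 clones, by replicate and dye orientation, with bars at the replicate values and diamonds at the mean of 3 replicates with its 95% limma interval. Crosses mark poor spots that were left out. The intervals of all 4 clones hold 0, and those of Gm-r1021-3937 and N-36A reach from -0.74 to 0.02 and from -0.47 to 0.59.

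The mean ratio lay below 0 for the 3 SS clones and above 0 for N-36A, while 49.3% of all clones tested lay below 0. Averaged over its clones, SS had 0.00, -0.20 and -0.33 in replicates 1, 2 and 3, or -0.18 ± 0.17 (SD, n = 3). The SS clones were then set against each other within replicates. Gm-r1021-169 minus Gm-r1021-3937 was 0.28 ± 0.23, Gm-r1021-3937 minus Gm-r1083-1238 was -0.27 ± 0.34 and Gm-r1021-169 minus Gm-r1083-1238 was 0.01 ± 0.20, with exact two-sided sign-flip permutation p of 0.25, 0.5 and 1. This permutation test cannot go below 0.25 with 3 replicates, and no other test of these differences was run. The 95% interval of each of the 4 clones lay within 2-fold in either direction, as it did for 97.9% of all clones tested.

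The other nodulin genes named on the array did not pass the test between the lines. They were ENOD40B, an early nodulin for which the annotation gives N-36B as another name, NOD33, and UR9. UR9 is a uricase whose other names in the annotation include nodulin-35, URnod-35 and URcot-35. Uricase is an enzyme on the route to allantoin, in which nodules export fixed nitrogen. All 6 clones of these 3 genes lay above background in both lines on every array, as did 59% of all cDNA clones. Their mean percentiles lay between 53.0 and 78.1 in IsoClark and between 55.4 and 80.3 in Clark. These readings include spots flagged as poor, on 4 arrays for the ENOD40B clone Gm-r1021-854 and on 1 or 2 for each other clone. Of 4 clones with enough usable spots to be tested, 0 passed the adjusted limma p in either direction and 0 had an unadjusted p under 0.05. ENOD40B had the lowest gene value, with 0.26, 0.03 and -0.54 in replicates 1, 2 and 3 and a mean of -0.08 ± 0.41, over 1 of its 2 clones. NOD33 had the highest, 0.01 ± 0.08 over 2 clones that gave -0.06 and 0.08, and UR9 had 0.01 ± 0.13 (SD, n = 3). Replicate 3 went opposite ways in ENOD40B, with -0.54 over 1 clone, and N-36A, with 0.76. That N-36A value averages 0.30 with 1.22 from an array on which its spot was not above background.

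The genes that move sucrose and lead its carbon to malate were taken next. Of 13 clones for 8 genes, 11 were tested with limma, 0 passed the adjusted p and 1 had an unadjusted p under 0.05. Of all clones tested, 0% passed the adjusted p and 5.53% had an unadjusted p under 0.05. By gene, 5 had a mean above 0 and 3 below, with a median of 0.05 against 0.00 over all clones tested. SUT1, a sucrose transporter, was lowest with -0.27, -1.24 and -0.19 in replicates 1, 2 and 3, a mean of -0.57 ± 0.58 (n = 3), a 95% limma interval from -1.08 to -0.06 and a limma p of 0.0343 unadjusted and 0.796 adjusted. CWINV, the cell wall invertase that splits sucrose outside the cell, was highest with -0.05, 1.12 and 0.13, a mean of 0.40 ± 0.63 and an adjusted p of 0.796. In both genes replicate 2 gave the widest value, which rests on 1 array. Each of these genes had 1 clone, and neither clone lay above background in both lines on every array. The median percentile of the SUT1 clone was 26.1 in IsoClark and 29.4 in Clark, and that of the CWINV clone 37.8 and 38.3. Of the 13 clones of the list, 8 lay above background in both lines on every array, beside 59% of all cDNA clones.

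The remaining genes of that list lay between these. PGM, a phosphoglucomutase, had 0.06 ± 0.49 and UGD1, which oxidizes UDP-glucose to the precursor of cell wall sugars, had 0.15 ± 0.19 (SD, n = 3). The phosphoenolpyruvate carboxylases PEPC7, PEPC16 and PEPC17 had -0.08 ± 0.24, -0.01 ± 0.07 and 0.04 ± 0.29, and the malate dehydrogenase MDH-1 had 0.06 ± 0.10 over 4 clones from -0.12 to 0.27. For each of these the mean was smaller than its replicate SD.

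**Figure D3:**
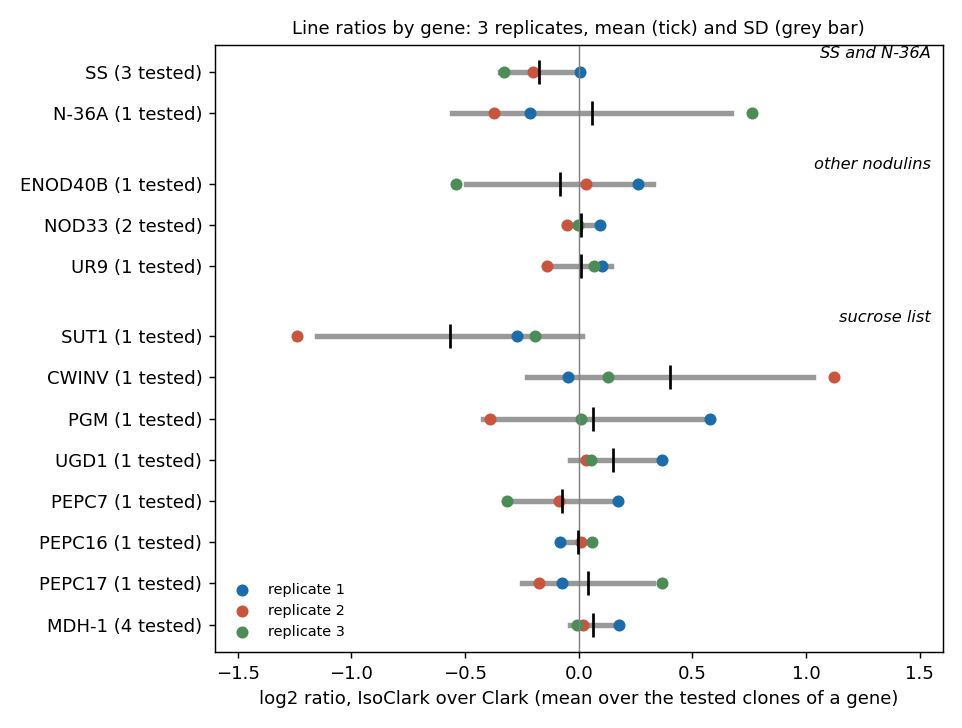
Rows are genes and points the log2 ratio of IsoClark over Clark in each replicate, averaged over the tested clones of the gene, with a tick at the mean and a grey bar for 1 SD to either side (n = 3). SS and N-36A stand above the other nodulins and the sucrose list, whose means run from -0.57 for SUT1 to 0.40 for CWINV.

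Markers of other tissues were compared as a check on the RNA of the lines. Of 9 green and 15 seed clones tested with limma, 0 passed the adjusted p. An unadjusted p under 0.05 was found for 0 green and 1 seed clone, beside 5.53% of all clones tested. The seed clone was of GY5, with -0.13, 1.69 and 0.85 in replicates 1, 2 and 3. No GY5 clone lay above background in all 12 channels. All 3 green tissue genes were measured, with gene means of 0.05 for CAB3, -0.17 for PSAD and 0.19 for ELIP, and median percentiles over their 11 clones of 62.7 in IsoClark and 62.6 in Clark. Of 9 seed genes 8 were tested, with 7 above 0 and 1 below, while 49.3% of all clones tested lay below 0. The median of the seed genes was 0.08, and the median percentiles over their 26 clones were 36.2 in IsoClark and 31.5 in Clark. In all 12 channels, 10 of 11 green and 13 of 26 seed clones lay above background, beside 59% of all cDNA clones. Their part in the SS and N-36A values was not tested.

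The named clones whose line ratio was most like that of the members were sought over the 6 arrays among 157 clones of other genes that were usable on every array. For Gm-r1021-3937 these were clones of DR1, BZIP21, a bZIP transcription factor, and LOC100101896, with Pearson's r of 0.94, 0.90 and 0.88. For N-36A they were clones of RPL37, a ribosomal protein, LOC732650 and LOC547822, with r of 0.81, 0.76 and 0.76. These are descriptions over 6 arrays that share hybridization, scan and normalization, and the highest of 157 values.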

How the data were processed

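Root RNA of IsoClark and Clark was compared on 6 two-colour arrays, 3 replicates as dye-swap pairs, with 90 ug of RNA per labelling per the labels. The authors quantified spots with ImaGene 6.1.0, and the deposited files hold the linear intensity of signal and local background in each dye, with no normalization. The authors also deposited a table of signed ratios, taken here as log2, with no log base, direction, background correction or centring given in the sources used here; it was used as an alternative only, as deposited and with 1 column turned by its correlation with the intensities. Table rows were tied to clones by clone number and a shift per clone set. The runs of 72 to 96 clones around the member clones matched their own rows best among the starts tried. Mean absolute r there was 0.46 (Gm-r1021-3937) to 0.94 (Gm-r1021-169), against 0.29 to 0.38 at the next best start. Offsets smaller than the step between starts were not tried. In limma 3.58.1 (R 4.3.3), background was corrected by normexp (offset 50) on signal mean and background median, followed by loess, with poor spots left out and spots flagged empty kept. A clone entered the test when it exceeded background in IsoClark or Clark on 3 arrays or more and had a value in all 3 replicates; lmFit and eBayes then compared the replicate values with 0, followed by Benjamini-Hochberg adjustment (threshold 0.05). The fit was tested on simulated data whose added effects were far larger than the member ratios. That test does not show how the fit handles ratios of their size. The number of arrays limits the precision, and p-values measure the spread between pools and arrays together.

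Every SS and N-36A clone was named. Of the nodulin and sucrose lists, each gene has 1 value, with the lowest and highest named; lists were matched by symbols and synonyms of the reference annotation (Glycine_max_v4.0), in which 522 of the 526 named genes were found by gene identifier. For likeness, the 3 clones of other genes with the highest r were named. Members and lists were chosen with earlier results of these data known. Alternatives covered normalization, background, flags, saturation, filter, dye term, day of quantification, turned arrays, the authors' ratios and each replicate left out. No genome build is tied to the arrays, so no coordinates are given, and no sequences of the clones were used here.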

Additional observations from a re-analysis of the deposited data

How the results depend on the processing

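No SS or N-36A clone passed an adjusted p of 0.05 under any of 19 alternatives, with adjusted p from 0.50 to 1. The ratio of Gm-r1021-3937 stayed below 0 in all of them, from -0.55 to -0.14, and the SS mean over 3 clones ran from -0.27 to -0.03. The other clones changed sign in some. N-36A had -0.0397 with median centring, -0.01025 with a term for the quantification day, -0.0411 with the Cy3 array of replicate 3 turned, -0.17 with the authors' ratios and their replicate 3 column turned, and -0.23 with those ratios as deposited. Gm-r1083-1238 had 0.0536 with the Cy3 array of replicate 3 turned and 0.0053 with the authors' ratios as deposited, and Gm-r1021-169 had 0.0106 with that array turned. Without a change of sign, Gm-r1021-169 moved by over 1.5 times to -0.24 with print-tip loess, -0.0016 with a dye term and -0.048 with the day as a term. It had -0.142 with the signal median and -0.125 with no spot flags used. N-36A likewise moved to 0.334 with the Cy5 array of replicate 2 turned, 0.205 with the signal median and 0.127 with print-tip loess. It had 0.089 with a normexp offset of 0 and 0.032 with no background correction. Gm-r1083-1238 moved to -0.013 with print-tip loess, -0.027 with the signal median and -0.139 with a dye term. The direction and log base of the authors' ratios are not stated. Leaving out 1 replicate at a time gave -0.141 (without replicate 1) to -0.045 for Gm-r1021-169, -0.29 (without replicate 3) to 0.27 for N-36A and -0.17 to 0.0071 (without replicate 3) for Gm-r1083-1238. Over all clones, 5 passed the adjusted p with the day as a term, none of them a member, against 0 under the other alternatives. The count with an unadjusted p under 0.05 was 743, from 629 to 1182 (without replicate 1) with 1 replicate left out, and 316 with the authors' ratios and their replicate 3 column turned. The causes were not tested. Alternatives that left out spots flagged empty, or spots below background in both channels, were added after seeing the data. No alternative moved a mean percentile by more than its replicate SD or a count of channels above background by more than 1.5 times. Signal limits N-36A, which was at most 6.08 times its background.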

Other observations

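The line ratio of Gm-r1021-3937 repeated closely within swap pairs, which was noticed after its values were seen. Its pair of replicate 3 includes the spot flagged as empty. The agreement rests on the dyes as labelled, which are in doubt for the Cy5 array of replicate 2 and the Cy3 array of replicate 3. The arrays of a pair differed by 0.05, 0.04 and 0.15 on the log2 scale in replicates 1, 2 and 3, or 0.08 on average, and 98.4% of the 2618 clones usable on all 6 arrays differed by more, with a median of 0.34. N-36A differed by 0.43, 0.91 and 0.93, or 0.76 on average, and 5.81% of those clones differed by more.

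On the 4 arrays of replicates 2 and 3, Gm-r1021-3937 lay between -0.65 and -0.50. Of 4315 clones usable on these arrays 645, or 14.9%, had 1 sign on all 4, and 2 clones including Gm-r1021-3937 lay at least as far from 0 on each of them. Of these, 1 was lower in IsoClark, which is Gm-r1021-3937 itself. The rule for this count was set from the clone's own values, so it describes the clone and tests nothing. Signs on these arrays also rest on the dyes as labelled. The arrays of replicate 1 gave 0.05 and -0.00. The -0.50 came from the spot flagged as empty on the Cy5 array of replicate 3.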
